A study of Mus musculus with 57 samples.

Results

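The enzymes of glycolysis and of the pentose phosphate pathway were followed in the adipose tissue of Mfn2-R707W knock-in mice. In all, 33 genes made up the group: 5 for hexose phosphorylation and isomerisation, 7 for phosphofructokinase and its activator fructose-2,6-bisphosphate, 11 for the triose phase, 2 for lactate dehydrogenase and 8 for the pentose phosphate pathway. They were picked by gene symbol, and all 33 of them were among the 52853 genes counted. The knock-in (KI) mice were homozygous for the R707W substitution of mitofusin 2, an outer mitochondrial membrane fusion protein, in every tissue, and descended from 1 CRISPR founder on C57BL/6J. Wild-type (WT) littermates were the controls. All mice were male, were allocated to a diet at 5 weeks of age and stayed on it for 6 months. Poly(A) RNA was sequenced from inguinal white adipose tissue (WAT) on chow (7 WT, 6 KI), from inguinal WAT on a high-fat diet (HFD, 45% of kcal as fat; 8 WT, 8 KI) and from brown adipose tissue (BAT) on the same HFD (6 WT, 6 KI).

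Glycolysis splits glucose into pyruvate in the cytosol and yields ATP and NADH. The pentose phosphate pathway branches off at glucose-6-phosphate. Its oxidative arm makes NADPH, which adipocytes spend on fatty acid synthesis and on redox defence, and its non-oxidative arm returns ribose carbon to glycolysis. In adipocytes the triose phosphates also feed the glycerol backbone of triglyceride, and brown adipocytes are known for a high capacity to take up and break down glucose.

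Total counts per mouse ran from 8042591 in BAT to 25680411 in inguinal WAT on HFD, where each column holds a pair of technical libraries, and from 8668279 to 11720458 on chow. CPM values, counts scaled to library size, were normalised within each tissue and diet set. The knock-in allele itself cannot be read from gene counts, and Mfn2 mRNA did not pass the edgeR test in the 3 sets, with adjusted p from 0.0114 to 0.113 and log2 fold changes (KI over WT) from 0.29 to 0.36. The 8 adipocyte markers summed to at least 16254 CPM in every mouse, and the 8 brown adipocyte markers summed to 9980.3 CPM or more in each BAT mouse, against at most 71.9 CPM in inguinal WAT on HFD. Several mice stood apart in markers of other cell types. Chow KI mouse 4 stood farthest and held 100553 CPM of 20 skeletal muscle markers, where the next chow KI mouse held 491 CPM. Muscle markers were also high in HFD KI mice 3 and 5 (6822 and 3822 CPM) and BAT WT mice 1 and 2 (3362 and 3808 CPM). Lymphocyte markers were high in HFD KI mouse 2 (987 CPM) and WT mouse 2 (678 CPM), and epithelial markers in chow WT mouse 4 (166 CPM). The genotype calls of each set are therefore given with and without these mice, where HFD KI mouse 5 was left out only singly. In whole tissue, fewer cells of a type and less RNA per cell cannot be told apart.

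Levels between genes were compared as CPM per kilobase of exon, on 1 scale over all mice and without a test. Aldoa, the aldolase that cleaves fructose-1,6-bisphosphate, had the highest level in all 6 groups, with the caveat that its count pools a pair of Ensembl entries and the length is that of the first. It stood at 345 ± 54.8 (SD, n = 8) in WT inguinal WAT on HFD and 1442 ± 565 (SD, n = 6) in WT BAT. The hexokinase and phosphofructokinase genes, which serve rate-setting steps, were far lower in WT inguinal WAT on HFD. Pfkl, the liver-type phosphofructokinase, stood at 12.7 ± 1.27 (SD, n = 8) in WT inguinal WAT on HFD and Hk2, the insulin-responsive hexokinase, at 10.8 ± 2.68 (SD, n = 8). Aldoc, the brain-type aldolase, was the lowest member in that group at 0.142 and never exceeded 37 counts in a mouse. Mean levels were higher in WT BAT than in WT inguinal WAT on the same diet for 25 of 33 members. The share over all genes on this scale is not given. For Pgam2 the BAT mean rests on WT mice 1 and 2, which were high in muscle markers. Its median was lower in WT BAT than in WT inguinal WAT on HFD (1.76 against 7.36). Pfkl reached 167 ± 37.7 and Tkt, the transketolase of the non-oxidative arm, 429 ± 243 in BAT, against 36.9 ± 4.53 for Tkt in inguinal WAT (SD, n = 6 and 8). The 8 that went the other way were the 4 PFKFB genes, Eno2, Pgm2, H6pd and G6pdx. G6pdx, the NADPH-forming glucose-6-phosphate dehydrogenase, stood at 52.9 ± 22.9 in BAT and 96.8 ± 17.5 in inguinal WAT.

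**Figure D1:**
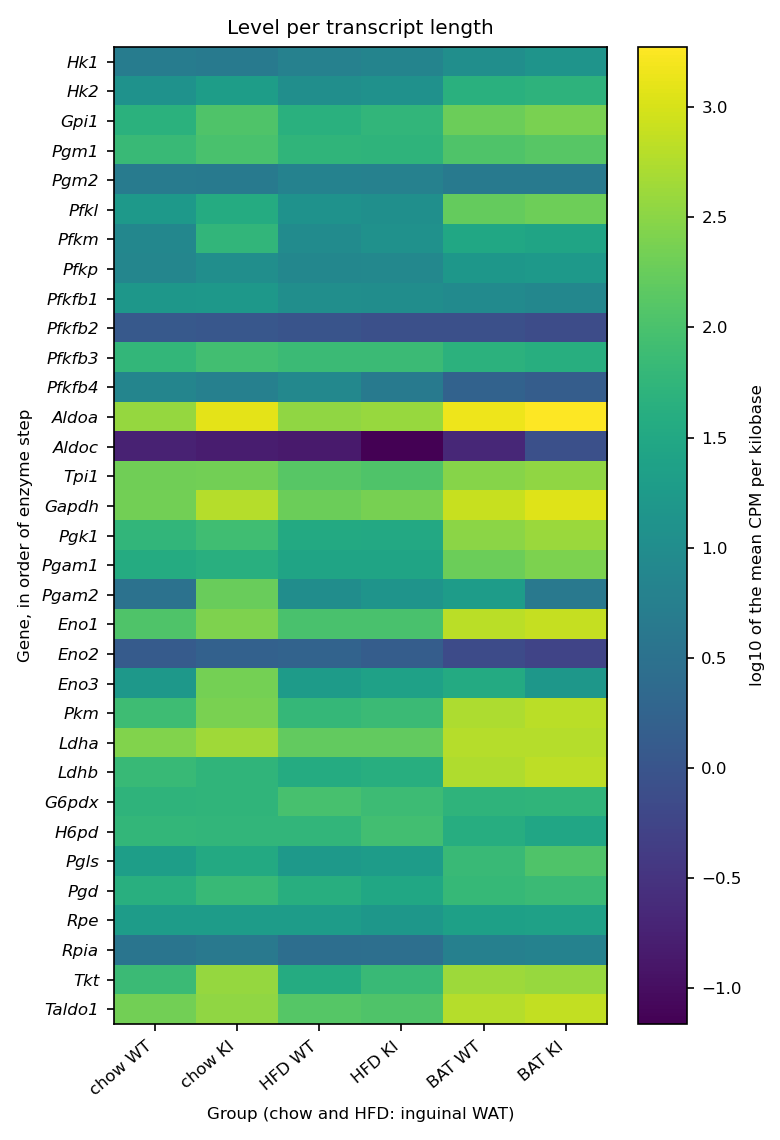
Mean level of each of the 33 genes (rows, in order of enzyme step) in the 6 groups (columns), as log10 of CPM per kilobase. BAT columns are brighter for most glycolytic genes. Aldoc is the darkest row except in the BAT KI column, where Eno2 and Pfkfb2 are darker. The bright Pgam2, Eno3 and Pfkm cells of the chow KI column come from KI mouse 4.

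Isozyme make-up set the depots apart. Within a mouse, Pfkl made up 38.7 to 47.7% of phosphofructokinase transcript per length in WT inguinal WAT on HFD and 69.2 to 82.9% in WT BAT. Ldhb, the lactate dehydrogenase subunit known for favouring pyruvate formation, made up 15.5 to 22.5% in WT inguinal WAT on HFD and 42 to 53.7% in WT BAT. These depot ranges did not overlap for either gene. On chow, the Ldha share was 77.8 to 82.1% in WT and 83.5 to 94% in KI mice, so the ranges were apart. On HFD the same shares were 77.5 to 84.5% and 77 to 82.8%, and they overlapped. Muscle isozymes stood out in single mice: Pgam2, the muscle phosphoglycerate mutase, made up a median of 2.4% of the mutase transcript in chow KI mice but 97.2% in KI mouse 4.

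**Figure D2:**
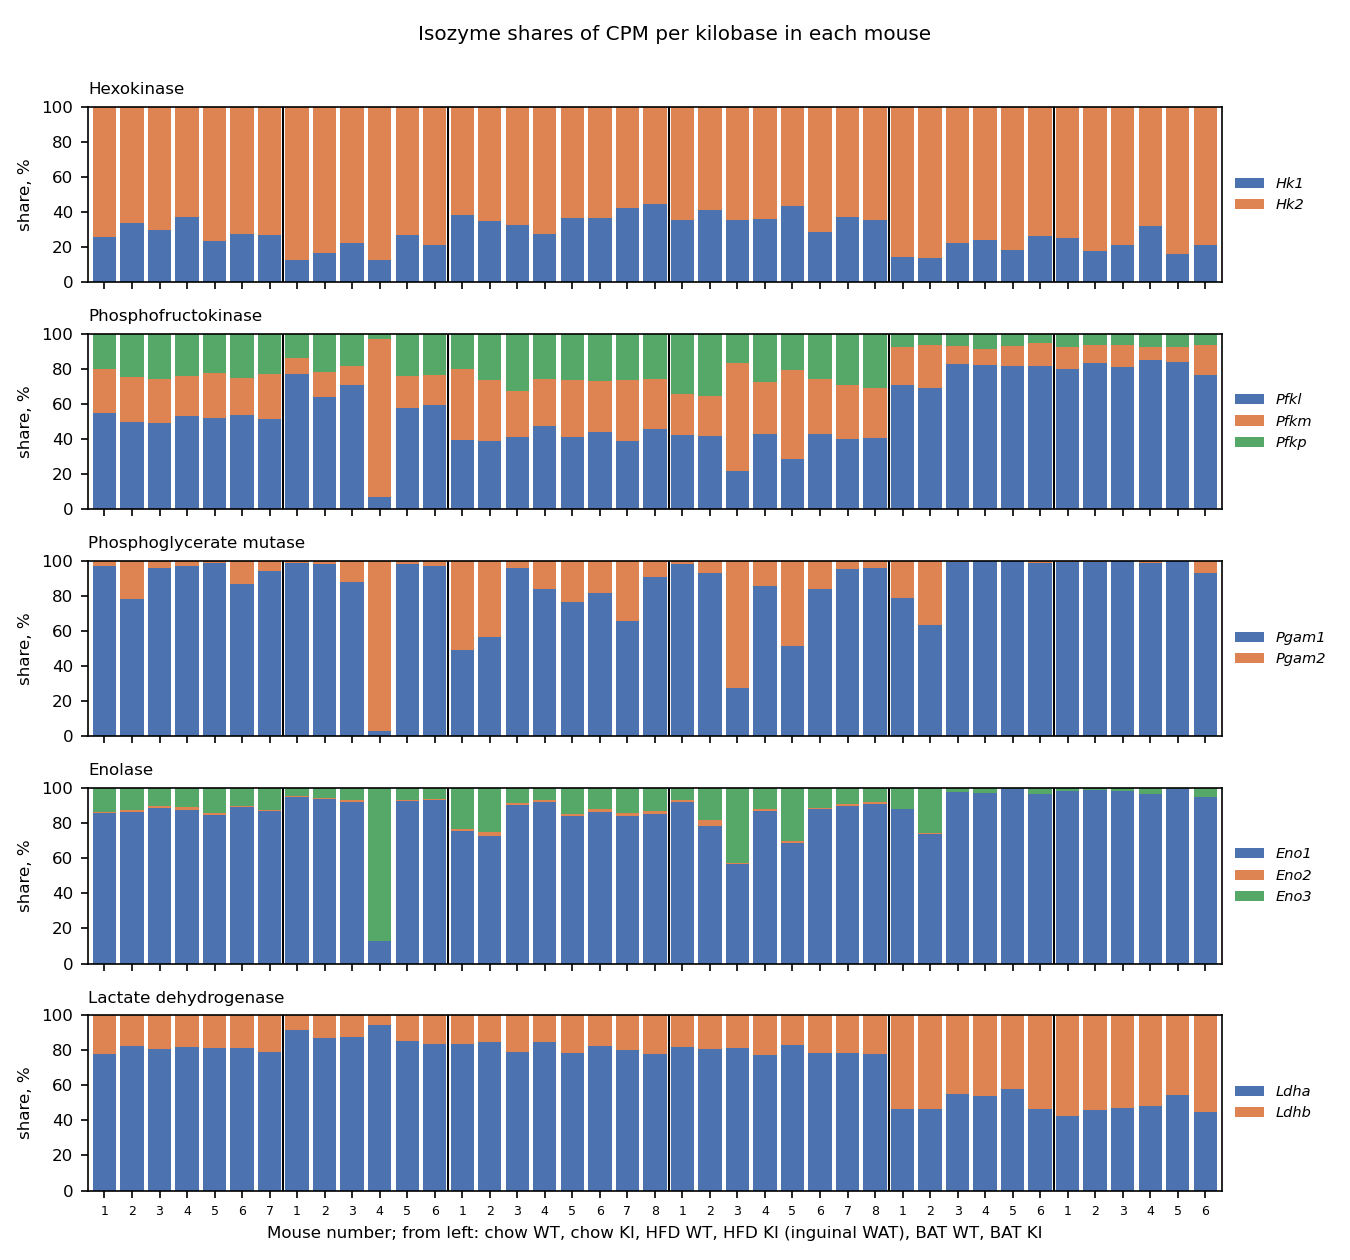
Share of each isozyme (stacked bars, percent of CPM per kilobase summed over the isozymes of that step) in each of the 41 mice; black lines separate the groups. Chow KI mouse 4 is the bar dominated by Pfkm, Pgam2 and Eno3, and the Ldhb share is larger in all 12 BAT bars than in the inguinal WAT bars.

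The first comparison asked what the mutation does to these genes in inguinal WAT on chow. Of the 32 members that passed the filter on low counts, 6 rose in KI mice at an adjusted p below 0.01 and none fell, where 1.96% of all 14629 genes tested were called higher and 1.27% lower. The 6 were Tkt, Pkm, Gapdh, Aldoa, Gpi1 and Eno1. The log2 fold change was positive for 25 of 32 members, with a median of 0.53 beside -0.01 over all genes tested. By enzyme step, the calls were 1 of 5 hexose genes, 0 of 7 phosphofructokinase genes, 4 of 10 triose genes, 0 of 2 lactate dehydrogenase genes, 0 of 4 oxidative and 1 of 4 non-oxidative pentose genes. KI and WT mice did not overlap for 9 of the 32, each with the KI mice above, while 4.32% of all genes tested showed no overlap in either direction.

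Tkt (ENSMUSG00000021957, chr14:30548359-30574720, + strand) encodes transketolase, which moves carbon units between pentose and hexose phosphates. WT mice spanned 405 to 860.2 CPM with a median of 579 (n = 7), and KI mice 1384 to 6636 with a median of 2214 (n = 6). The lowest KI mouse was above the highest WT mouse, and the fitted fold was 4.97 (log2 fold change 2.31 ± 0.33 (SE), edgeR adjusted p = 0.000742). The NADPH-forming oxidative-arm genes did not pass. Pgd, the 6-phosphogluconate dehydrogenase, had a log2 fold change of 0.59 (adjusted p = 0.137) and G6pdx one of 0.05 (adjusted p = 0.852).

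In the triose phase, Pkm (ENSMUSG00000032294, chr9:59656368-59679375, + strand), the pyruvate kinase that makes the last ATP of glycolysis, rose. WT mice spanned 373 to 494 CPM with a median of 441 (n = 7), and KI mice 717 to 2092 with a median of 1107 (n = 6). These ranges were apart, and the fitted fold was 3.01 (log2 fold change 1.59 ± 0.23 (SE), edgeR adjusted p = 0.000666). Gapdh (ENSMUSG00000057666, chr6:125161715-125166467, − strand), the NADH-forming glyceraldehyde-3-phosphate dehydrogenase and a common loading control, rose too. WT mice spanned 862 to 1079 CPM with a median of 958 (n = 7), and KI mice 1572 to 5252 with a median of 2199.5 (n = 6). Again no KI mouse reached down to the WT range, and the fitted fold was 2.82 (log2 fold change 1.5 ± 0.25 (SE), edgeR adjusted p = 0.00195). Aldoa was counted over a pair of neighbouring Ensembl entries (ENSMUSG00000114515, chr7:126800790-126809108, and ENSMUSG00000030695, chr7:126795234-126800751, − strand), whose rows hold the same pooled count. WT mice spanned 1352 to 1758 CPM with a median of 1500.0 (n = 7), and KI mice 2397 to 11940.1 with a median of 3683 (n = 6). The groups were apart with a fitted fold of 3.31 (log2 fold change 1.73 ± 0.32 (SE), edgeR adjusted p = 0.00463), and the highest value was that of KI mouse 4, the mouse with muscle transcripts. Eno1 (ENSMUSG00000063524, chr4:150236721-150248879, + strand) is the ubiquitous enolase. WT mice spanned 554 to 753 CPM with a median of 674 (n = 7), and KI mice 955 to 3137 with a median of 1259.8 (n = 6). KI mouse 1 stood well above the other KI mice, no KI mouse overlapped WT, and the fitted fold was 2.27 (log2 fold change 1.18 ± 0.23 (SE), edgeR adjusted p = 0.00662).

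Upstream of the triose phase, Gpi1 (ENSMUSG00000036427, chr7:34201330-34230336, − strand), the isomerase that turns glucose-6-phosphate into fructose-6-phosphate, rose. WT mice spanned 304 to 384 CPM with a median of 332 (n = 7), and KI mice 498 to 1374 with a median of 647 (n = 6). The ranges were apart, with a fitted fold of 2.31 (log2 fold change 1.21 ± 0.20 (SE), edgeR adjusted p = 0.00224). The calls for Tkt, Pkm, Gapdh and Gpi1 remained when any 1 chow mouse was left out. Aldoa lost its call without WT mouse 1, 2, 3, 5, 6 or 7 or KI mouse 1 (adjusted p up to 0.013), and Eno1 without any 1 of the 7 WT mice or without KI mouse 2 or 3 (up to 0.017).

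**Figure D3:**
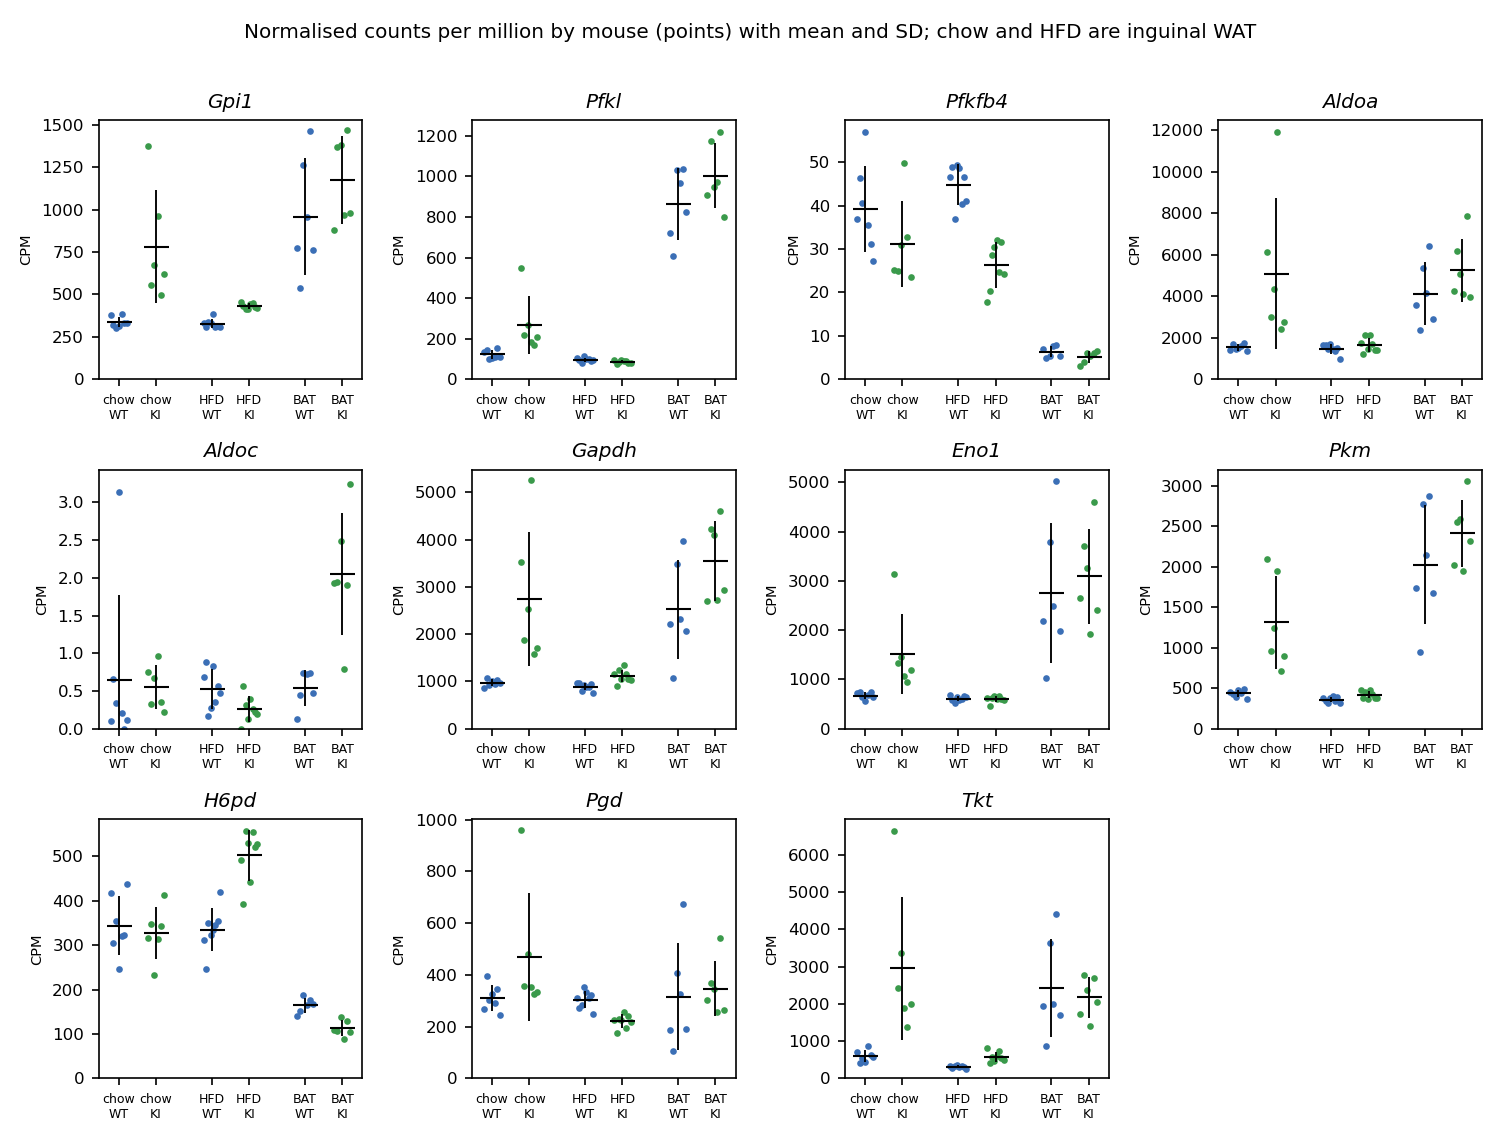
Normalised CPM by mouse (points; blue WT, green KI) with the mean (bar) and SD (line) for the 11 genes that passed the test in at least 1 comparison; chow and HFD denote inguinal WAT. On chow the KI points of Gpi1, Aldoa, Gapdh, Eno1, Pkm and Tkt all lie above the WT points, and H6pd lies higher in KI mice on HFD but lower in KI BAT.

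The promoters of 4 of these genes are shown for their place in the comparisons. Tkt and Gpi1 were called on both diets, and Pkm and Gapdh were among the members whose genotype effect differed between diets. Each window runs from 250 bases before to 50 bases after a RefSeq start site (GRCm38.p6), 5′ to 3′ on the gene's strand. Capitals mark ACGTG on either strand, the core of the hypoxia response element. The Tkt window is chr14:30548881-30549180 (+ strand), Gpi1 chr7:34230287-34230586 (− strand), Pkm chr9:59656977-59657276 (+ strand) and Gapdh chr6:125165724-125166023 (− strand).
Tkt: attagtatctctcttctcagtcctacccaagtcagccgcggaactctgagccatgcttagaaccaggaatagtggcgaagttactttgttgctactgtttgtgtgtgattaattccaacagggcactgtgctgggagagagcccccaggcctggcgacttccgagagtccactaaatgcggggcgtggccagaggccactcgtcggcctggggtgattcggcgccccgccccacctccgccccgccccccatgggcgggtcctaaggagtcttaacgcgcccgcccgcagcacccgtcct
Gpi1: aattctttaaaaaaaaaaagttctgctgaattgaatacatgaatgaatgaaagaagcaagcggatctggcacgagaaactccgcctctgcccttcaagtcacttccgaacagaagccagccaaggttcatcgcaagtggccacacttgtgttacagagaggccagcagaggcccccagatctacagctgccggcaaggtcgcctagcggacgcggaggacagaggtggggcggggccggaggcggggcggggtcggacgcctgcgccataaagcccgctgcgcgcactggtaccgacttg
Pkm: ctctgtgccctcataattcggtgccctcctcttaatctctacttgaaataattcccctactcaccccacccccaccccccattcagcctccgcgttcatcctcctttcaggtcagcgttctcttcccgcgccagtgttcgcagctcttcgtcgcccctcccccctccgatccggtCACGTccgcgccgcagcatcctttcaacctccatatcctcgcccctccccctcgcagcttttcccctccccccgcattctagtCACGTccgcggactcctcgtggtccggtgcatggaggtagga
Gapdh: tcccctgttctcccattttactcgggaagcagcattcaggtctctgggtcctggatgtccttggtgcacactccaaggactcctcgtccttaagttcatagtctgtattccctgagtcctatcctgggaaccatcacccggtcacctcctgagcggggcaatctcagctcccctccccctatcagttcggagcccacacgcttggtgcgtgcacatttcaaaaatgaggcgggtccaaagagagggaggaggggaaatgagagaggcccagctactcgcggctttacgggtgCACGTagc

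The Pkm window, the second of 2 for that gene, holds 2 matches, the Gapdh window 1, and the Tkt and Gpi1 windows none. The other Pkm window, chr9:59656326-59656625, holds none. The Tkt and Gapdh windows lie inside the Ensembl genes, whose 5′ ends at chr14:30548359 and chr6:125166467 were not searched. Pfkl and Eno1, the other members whose genotype effect differed between diets, hold no match in any window. Over all 33 members, 19 of 51 distinct windows (37.3%) contained ACGTG, against 19.7% of 32544 mouse windows of the same length. CACGTG, an E-box whose every copy also holds ACGTG, was in 7.84% of member windows and 7.17% of all. TGACNNNGC, the antioxidant response motif, was in 9.8% and 12.4%, and TTGCATCA, the C/EBP-ATF motif of the integrated stress response, in 0 member windows and 0.867% of all. Both strands were searched, several windows of 1 gene can overlap, and a match is a string of letters and not a bound site.

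Members that missed the threshold on chow mostly leaned the same way. Pfkl (6 of 6 KI mice above all WT; log2 fold change 1.12 ± 0.25 (SE), edgeR adjusted p = 0.0117), Hk2 (log2 fold change 0.67 ± 0.16 (SE), edgeR adjusted p = 0.0187) and Ldha, the lactate-forming subunit (log2 fold change 0.65 ± 0.16 (SE), edgeR adjusted p = 0.0224), each showed no overlap and did not pass; DESeq2 called all 3. Pgk1, Pfkp and Pgls had adjusted p between 0.0255 and 0.0389. Among the PFKFB enzymes, which set the level of fructose-2,6-bisphosphate, Pfkfb3 had a log2 fold change of 0.49 and Pfkfb4 of -0.33 (adjusted p = 0.0629 and 0.32). The remaining pentose enzymes Taldo1, Rpe, Rpia and H6pd lay between -0.07 and 0.67, none past the threshold.

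Pgam2, Eno3 and Pfkm, the muscle isozymes, carried the largest chow fold changes among the members and did not pass: 5.83 ± 1.90, 3.79 ± 1.20 and 2.87 ± 1.02 on the log2 scale (SE), with adjusted p from 0.073 to 0.104. KI mouse 4 held 1007 CPM of Pgam2, where the other 5 KI mice held 0.537 to 5.31. Without that mouse the log2 fold changes were -0.75, 0.11 and -0.11, so the sign turned for Pgam2 and Pfkm. The 6 called genes were called without KI mouse 4 as well, and no others; 1.73% of 14783 genes were then called higher. Tkt stood at 2.42, Pkm at 1.45, Aldoa at 1.28, Eno1 at 1.27, Gapdh at 1.21 and Gpi1 at 1.15, with adjusted p of at most 0.00573. The median over the members was 0.36, lower than with all mice, and 22 of 32 were positive.

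**Figure D4:**
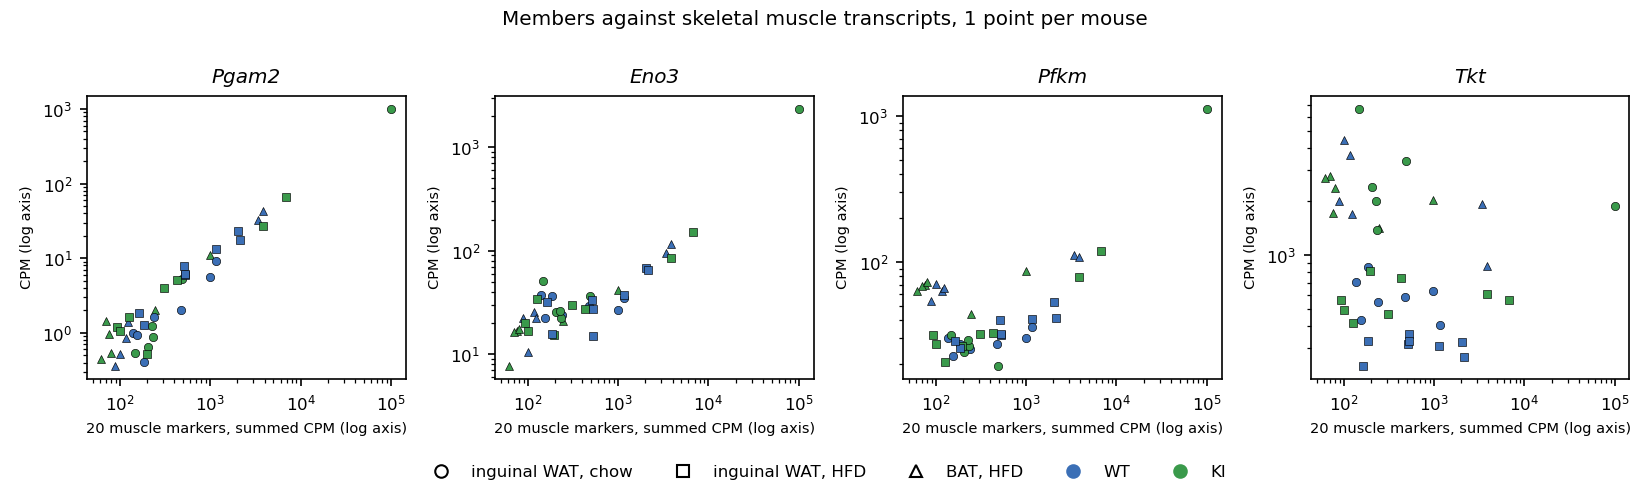
CPM of 4 members (vertical, log axis) against the summed CPM of 20 skeletal muscle markers (horizontal, log axis), 1 point per mouse; shape gives tissue and diet, colour genotype. Pgam2, Eno3 and Pfkm are highest in the chow KI mouse at the far right, while Tkt in that mouse lies among the other chow KI mice.

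Other cell type markers also moved with genotype on chow. The 8 brown adipocyte markers summed to 48.3 to 138 CPM in WT and 167 to 957 CPM in KI mice, with no overlap. None of the 8 was at 0 in a group, but only 5 passed the filter on low counts. All 5 had positive log2 fold changes, and 2 were called higher. Ucp1 itself was at most 0.966 CPM in a chow mouse. KI mouse 5 had the lowest brown marker sum of the KI mice and the lowest value for all 6 called genes, and KI mouse 1 had the highest sum and the highest value for 4 of the 6. The part of brown adipocyte transcripts in these results was not tested. Adipocyte markers overlapped (26467 to 46575 CPM in WT, 29896 to 42594 in KI). Macrophage (602 to 2293 and 433 to 1068), lymphocyte (28.3 to 185 and 19.7 to 535), fibroblast (2152 to 4611 and 1539 to 2341) and endothelial sums (1607 to 2422 and 1399 to 2038) overlapped as well. With KI mice 3 and 4 and WT mouse 4 left out, the mice highest in lymphocyte, muscle and epithelial markers, the calls for Aldoa, Gapdh, Pkm and Tkt remained and those for Gpi1 and Eno1 did not. Their log2 fold changes in that fit were 1.16 and 1.26 (adjusted p = 0.0139 and 0.0157), close to those with every mouse.

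On HFD the same depot gave a mixed pattern. Gpi1, H6pd and Tkt rose in KI mice, Pfkfb4 and Pgd fell, and the other 27 of 32 members tested did not pass. Over all 16471 genes, 6.21% were called higher and 5.24% lower, so the shares of members called, 3 and 2 of 32, were near the background. The median log2 fold change of the members was 0.03 beside 0.01 over all genes, and 17 were positive. KI and WT mice did not overlap for Gpi1, Tkt and Pfkfb4, where 4.75% of all genes showed no overlap.

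Tkt again differed most among the members that rose. WT mice spanned 238 to 361 CPM with a median of 321 (n = 8), and KI mice 416 to 811 with a median of 559.7 (n = 8). The 8 KI mice were all above the 8 WT mice, with a fitted fold of 1.88 (log2 fold change 0.91 ± 0.13 (SE), edgeR adjusted p = 4.52e-05). Gpi1 was tightly grouped. WT mice spanned 305 to 383 CPM with a median of 320.2 (n = 8), and KI mice 412 to 455 with a median of 428 (n = 8). These ranges were apart, with a fitted fold of 1.32 (log2 fold change 0.40 ± 0.06 (SE), edgeR adjusted p = 0.000114). H6pd (ENSMUSG00000028980, chr4:149979475-150009023, − strand) encodes the bifunctional enzyme that runs the first oxidative steps inside the endoplasmic reticulum. WT mice spanned 245 to 419.5 CPM with a median of 339 (n = 8), and KI mice 392 to 556 with a median of 524 (n = 8). Of 8 KI mice, 7 were above all WT mice (log2 fold change 0.58 ± 0.10 (SE), edgeR adjusted p = 0.000294).

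Pfkfb4 (ENSMUSG00000025648, chr9:108991778-109032228, + strand), a bifunctional enzyme that makes and breaks down fructose-2,6-bisphosphate, fell. WT mice spanned 37 to 49.3 CPM with a median of 46.6 (n = 8), and KI mice 17.9 to 32.1 with a median of 26.6 (n = 8). Every KI mouse lay below every WT mouse (log2 fold change -0.77 ± 0.11 (SE), edgeR adjusted p = 7.68e-05). Pgd (ENSMUSG00000028961, chr4:149149991-149166771, − strand), the cytosolic NADPH-forming step after the lactonase, fell too. WT mice spanned 249 to 353 CPM with a median of 310.4 (n = 8), and KI mice 175 to 258 with a median of 227 (n = 8). The ranges overlapped at the edge (log2 fold change -0.46 ± 0.09 (SE), edgeR adjusted p = 0.000804). G6pdx and Rpe, the ribulose-phosphate epimerase, had log2 fold changes of -0.33 and -0.37 and did not pass (adjusted p = 0.0472 and 0.0167). Each of the 5 calls remained without any 1 mouse of the 16. In 1 fit of all 6 groups, which share 1 estimate of the spread, Gpi1, Pgd and Tkt were not called (adjusted p = 0.109, 0.199 and 0.0135).

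In the triose phase none of the 10 members tested passed on HFD. Gapdh came nearest. WT mice spanned 759.6 to 963 CPM with a median of 908 (n = 8), and KI mice 908 to 1340.2 with a median of 1102 (n = 8). Of 8 KI mice, 7 were above all WT mice, and the adjusted p lay just above the threshold (log2 fold change 0.33 ± 0.09 (SE), edgeR adjusted p = 0.01005). DESeq2 called it. Pkm (log2 fold change 0.22 ± 0.08 (SE), edgeR adjusted p = 0.051) overlapped and did not pass. Aldoa, Eno1, Tpi1, Pgk1 and Pgam1 lay between -0.25 and 0.17 on the log2 scale. Ldha (0.03) and Ldhb (0.17) did not pass either. Muscle markers spanned 165 to 2145 CPM in WT and 93.8 to 6822 CPM in KI mice, overlapping, and Pfkm, Pgam2 and Eno3 had standard errors of 0.34 to 0.95. Brown adipocyte markers (21.7 to 45.9 and 33.8 to 71.9 CPM) overlapped here, and of the 5 brown markers tested 2 rose and 1 fell. Of 8 adipocyte markers 2 rose and 1 fell, while 7 of 8 macrophage and 7 of 8 fibroblast markers had negative log2 fold changes, with medians of -0.42 and -0.33 and 1 called lower in each list. The part of these markers in the HFD results was not tested. With KI mice 2 and 3 and WT mouse 2 left out, the mice highest in lymphocyte or muscle markers of their group, all 5 calls remained. Gapdh passed as well. KI mouse 5, next in muscle markers at 3822 CPM, stayed in that fit. With KI mouse 5 alone left out, the 5 calls remained.

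**Figure D5:**
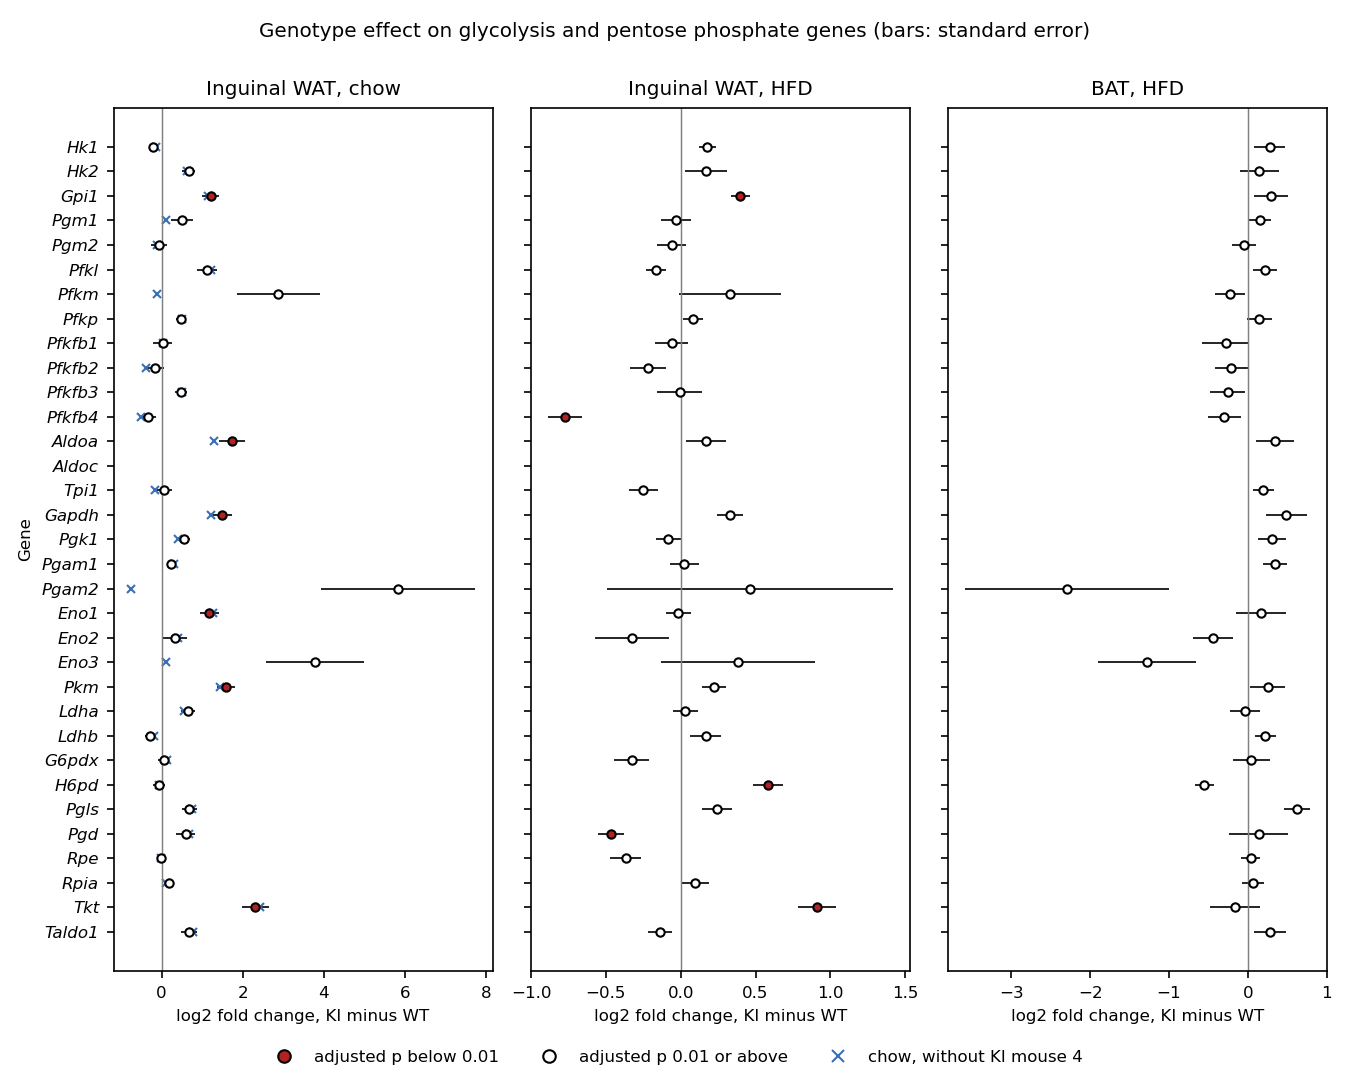
Log2 fold change, KI minus WT, with its standard error for each gene in the 3 tissue and diet groups; the 3 horizontal axes differ in range. Filled points passed at an adjusted p below 0.01 (6 on chow, 5 on HFD, none in BAT), blue crosses give the chow values without KI mouse 4, and Aldoc was below the count filter.

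In BAT no member passed the edgeR test, while 1.36% of all 13267 genes were called higher and 0.475% lower. Of the members, 3 had an unadjusted p below 0.05, beside 24.4% of all genes tested. DESeq2 called 3, which were Aldoc, H6pd and Pgls, and 4.67% of the 15345 genes to which it gave an adjusted p. The members' median log2 fold change was 0.14 beside -0.01 over all genes, and 20 of 32 were positive. H6pd came nearest. WT mice spanned 139.5 to 188 CPM with a median of 166 (n = 6), and KI mice 88.4 to 138 with a median of 108 (n = 6). All 6 KI mice lay below all 6 WT mice (log2 fold change -0.55 ± 0.12 (SE), edgeR adjusted p = 0.0113), the single one of the 32 tested without overlap, where 3.56% of all genes had none. Pgls, the lactonase of the oxidative arm, had a log2 fold change of 0.62 (adjusted p = 0.0311) with 5 of 6 KI mice above all WT mice.

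WT BAT mice differed widely among themselves. For Tkt, WT mice spanned 864 to 4417 CPM with a median of 1969 (n = 6), and KI mice 1411 to 2781 with a median of 2209.8 (n = 6). The groups overlapped (log2 fold change -0.16 ± 0.32 (SE), edgeR adjusted p = 0.806). Eno1 spanned 1034 to 5024 CPM in WT and 1923 to 4589 in KI mice, with a log2 fold change of 0.17 ± 0.32 (SE). Gapdh (log2 fold change 0.49 ± 0.26 (SE), edgeR adjusted p = 0.255) and Pkm (log2 fold change 0.25 ± 0.22 (SE), edgeR adjusted p = 0.509) did not pass. A p that misses the threshold does not show that these genes were alike in both genotypes. Pgam2 and Eno3 had negative fold changes of -2.29 ± 1.29 and -1.28 ± 0.62, which did not pass, and WT mice 1 and 2 held 3362 and 3808 CPM of muscle markers, against at most 985 CPM in KI BAT. Without these WT mice still no member was called.

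Aldoc did not reach the count filter of any genotype comparison. In BAT it had 1 to 7 counts in WT and 9 to 27 counts in KI mice, which is 0.133 to 0.739 and 0.786 to 3.25 CPM. The groups did not overlap, at a level of at most 0.0927% of aldolase transcript per length in a KI BAT mouse.

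Whether diet changed the genotype effect was tested directly, as the effect on HFD minus the effect on chow in inguinal WAT. Of 33 members, 4 passed, Pkm, Pfkl, Eno1 and Gapdh, all in the negative direction, where 0.632% of 17400 genes were called. The difference was negative for 29 of 33 members, with a median of -0.52 beside 0.02 over all genes. All 11 triose-phase members and all 7 of the phosphofructokinase group had a negative sign with every mouse included. Without chow KI mouse 4, 24 of 33 were negative with a median of -0.44. The sign turned for Pgam2 (1.25), Pfkm (0.46), Eno3 (0.29), Pfkfb2 (0.18) and, barely, Rpia (0.00135), none of which passed in either fit. With every mouse, all 8 brown adipocyte markers were negative too (median -1.44, 1 called), as were all 20 muscle and all 8 lymphocyte markers. Adipocyte markers split 4 and 4. Of 8 macrophage, fibroblast and endothelial markers each, 6 were positive, as were all 4 epithelial markers tested. The part of these markers in the diet difference was not tested. The log2 fold change of Pkm was 0.22 on HFD and 1.59 on chow (difference -1.35 ± 0.23 (SE), adjusted p = 0.0012, edgeR). Pfkl was -0.16 on HFD and 1.12 on chow (difference -1.28 ± 0.24 (SE), adjusted p = 0.00404), without a call in either diet alone. On chow, WT mice spanned 100.2 to 152 CPM with a median of 110.3 (n = 7), and KI mice 168 to 548 with a median of 213 (n = 6). On HFD, WT mice spanned 80.9 to 113 CPM with a median of 95.5 (n = 8), and KI mice 76.9 to 93.3 with a median of 86.9 (n = 8). The groups were apart on chow and overlapped on HFD.

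Eno1 was -0.02 on HFD and 1.18 on chow (difference -1.18 ± 0.24 (SE), adjusted p = 0.00709), and Gapdh 0.33 and 1.5 (difference -1.15 ± 0.25 (SE), adjusted p = 0.00985). On HFD the Eno1 values of WT mice (512 to 675 CPM) and KI mice (456 to 672 CPM) overlapped. Pfkl and Pkm were called when any 1 of the 29 mice was left out. Gapdh was called in 8 of these 29 fits, with adjusted p up to 0.0247 in the other 21, and Eno1 lost its call without chow WT mouse 1, 3, 5 or 7, HFD KI mouse 7 or HFD WT mouse 1 (up to 0.0134). Without chow KI mouse 4, the mouse with muscle transcripts, Pfkl (-1.36), Eno1 (-1.27) and Pkm (-1.21) were called and Gapdh was not (-0.86, adjusted p = 0.0115). In that fit 0.636% of 17618 genes were called. Without chow KI mouse 5, the KI mouse lowest for the 6 genes called on chow, 9 members were called, adding Hk1, Gpi1, Aldoa, Pgd and Tkt. Leaving out the lowest KI mouse raises the chow KI mean of those 6 genes by construction. The share of all genes called in that fit is not given.

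Tkt and Gpi1, which rose on both diets, did not differ between diets at this threshold (Tkt difference -1.39 ± 0.34 (SE), adjusted p = 0.0203; Gpi1 -0.80 ± 0.20 (SE), adjusted p = 0.0249). Aldoa (-1.54 ± 0.33 (SE), adjusted p = 0.0106) and Pgd (-1.04 ± 0.25 (SE), adjusted p = 0.0158) also missed it. Pgd had opposite signs in the 2 diets. It fell by 0.46 on the log2 scale on HFD and its chow value was 0.59. On chow, WT mice spanned 247 to 395 CPM with a median of 304 (n = 7), and KI mice 325 to 959 with a median of 356 (n = 6). KI mouse 1 was far above the other chow mice. Hk1 (0.39 ± 0.11 (SE), adjusted p = 0.0479) and H6pd (0.67 ± 0.18 (SE), adjusted p = 0.0418) had positive differences, as did Ldhb and Pgm2, and did not pass.

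The depot comparison, the effect in BAT minus that in inguinal WAT on the same HFD, called H6pd and Aldoc among the 33 members, where 2.82% of 17214 genes were called. H6pd rose in KI inguinal WAT and had the opposite sign in BAT, a log2 difference of -1.09 ± 0.16 (SE), adjusted p = 5.41e-05 (edgeR). Its KI mice were above WT in inguinal WAT (392 to 556 against 245 to 419.5 CPM, overlapping) and below it in BAT (88.4 to 138 against 139.5 to 188 CPM, apart). On chow the groups overlapped (-0.07 ± 0.15, SE). This call remained without any 1 of the 28 mice. For Aldoc the difference was 2.92 on the log2 scale, from at most 27 counts in a BAT or HFD mouse. It missed the count filter of both genotype fits and entered this one through KI BAT, the group where it was highest, so its call is a description only. It was not tested when every mouse had to hold 10 counts. Whether the BAT and inguinal columns of 1 number came from 1 animal is not stated, so they were taken as independent. Tkt (-1.04 ± 0.34 (SE), adjusted p = 0.0595) missed the threshold. Its KI effect was 0.91 in inguinal WAT and -0.16 in BAT.

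The H6pd promoter window, shown because the genotype effect on this gene differed between depots, is chr4:150003187-150003486 (GRCm38.p6, − strand). It holds none of the motifs searched, so it has no capitals. This RefSeq window lies inside the Ensembl gene, whose 5′ end at chr4:150009023 was not searched.
H6pd: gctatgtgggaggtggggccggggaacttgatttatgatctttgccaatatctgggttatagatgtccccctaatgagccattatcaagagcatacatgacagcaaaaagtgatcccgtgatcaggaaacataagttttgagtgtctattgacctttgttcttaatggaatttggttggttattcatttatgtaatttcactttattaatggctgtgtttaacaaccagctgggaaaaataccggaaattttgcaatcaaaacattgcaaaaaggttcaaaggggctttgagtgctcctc

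Genes next to the pathway were read from 4 lists. Of 23 glycogen genes tested on HFD, 9 rose and 2 fell, of 22 on chow 5 rose, and of 21 in BAT 2 rose and 2 fell. Over all genes the shares were 6.21% higher and 5.24% lower on HFD, 1.96% and 1.27% on chow, and 1.36% and 0.475% in BAT. The chow count was 5 of 22 without KI mouse 4 as well, with Gyg at 1.31, Ugp2 at 0.78 and Pygl at 1.73. Gyg, the glycogenin that primes glycogen, rose in all 3 sets and overlapped in none (log2 fold change 1.33 on chow, 0.68 on HFD and 0.92 in BAT, edgeR adjusted p at most 0.000583). Ugp2, which makes UDP-glucose, and Pygl, the liver-type glycogen phosphorylase, rose in inguinal WAT on both diets. The log2 fold changes of Ugp2 were 0.84 on chow and 0.67 on HFD, those of Pygl 1.61 and 1.15, with adjusted p of at most 0.00136. Gys2, the liver-type glycogen synthase, fell on HFD in inguinal WAT (-2.63, adjusted p = 2.55e-05) and in BAT (-1.21, adjusted p = 0.00378) and overlapped on chow (0.05).

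Of the other glycolytic, gluconeogenic and pentose enzymes, Prps1, which turns ribose-5-phosphate into the nucleotide precursor PRPP, fell on HFD (-1.27, adjusted p = 1.81e-07) and its paralogue Prps2 rose (0.41, adjusted p = 0.000215), which is 1 called higher and 1 lower of 18 tested. Over all genes 6.21% were called higher and 5.24% lower on HFD, so the counts of this list were near the background. None of 18 was called in BAT. Of the lactate and proton exporters, Slc16a1, the MCT1 monocarboxylate carrier, rose on chow (0.98, adjusted p = 0.00565; 1.01 without KI mouse 4), and none was called on HFD or in BAT. Of 15 regulators, Txnip and Mlxipl, the glucose-responsive ChREBP, rose on HFD (0.51, adjusted p = 0.000407, and 0.54, adjusted p = 0.00448). Hif1a, the oxygen-sensitive HIF subunit, fell on HFD (-0.32, adjusted p = 0.00364) and Egln3, an oxygen-sensing prolyl hydroxylase and HIF target, fell in BAT (-2.65, adjusted p = 3.66e-05). None of the 15 was called on chow. The regulators thus had 2 called higher and 1 lower of 15 on HFD, beside the HFD shares above. In BAT 1 of 15 was called lower, beside 0.475% of all genes. For the exporters on chow, 1 of 7 tested was called higher, beside 1.96% of all genes.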

How the data were processed

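Gene counts were the authors' deposited tables, 1 each for BAT, inguinal WAT on chow and inguinal WAT on HFD, with 41 mouse columns. Per the study's methods, adapters were removed with cutadapt, reads were aligned to GRCm38 with STAR, sorted with SAMtools and counted with featureCounts. Versions and strand setting are not given in the sources used here, so reads of overlapping or antisense genes cannot be told apart. The 57 libraries include technical pairs for inguinal WAT on HFD, held as 1 column per mouse. Of 54838 entries, 1884 without a count were dropped, and the 200 entries of 99 shared symbols, which hold the same pooled counts, were kept once per symbol.

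Counts were tested with edgeR 4.0.16 (R 4.3.3; TMM, filterByExpr, robust quasi-likelihood fit) across all genes that passed the filter, with Benjamini-Hochberg adjustment over them and a call at an adjusted p below 0.01. The SE is the absolute log2 fold change divided by the square root of F. Diet and depot differences were interaction contrasts over 4 groups. Each fit was run once on simulated counts with the same spread for every gene and no outlying mouse. That run therefore does not cover mice that stood apart, as in these data. DESeq2 1.42.0, other filters, scalings, covariates, sample sets and each mouse left out were alternatives, of which the joint removals of mice rich in muscle, lymphocyte or epithelial markers were chosen after seeing the data. Members called in at least 1 of the 5 fits were named with full statistics, and of each neighbouring list at most 4 called genes by adjusted p. The members and lists were chosen with earlier results of these data known. No pair of mice in a group held counts that agreed within sampling noise (lowest chi-square per gene 7.18). Promoters are RefSeq windows (GRCm38.p6), found for all 33 members. The chow result of the list of other glycolytic, gluconeogenic and pentose enzymes is not reported here.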

Additional observations from a re-analysis of the deposited data

Results flagged for a closer look

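Of 66 sets of mice (11 genes in 6 groups), 8 held 1 mouse far from the others of its group by Dixon's criterion. For independent sets of normally distributed values, chance gives about 1 in 20. The sets share mice and CPM need not be normally distributed, so the 8 cannot be held against that rate. On chow, KI mouse 1 was high for Pfkl (548 CPM, the other KI mice 168 to 266), Eno1 (3137, the others 955 to 1464) and Pgd (959, the others 325 to 479). KI mouse 4, the mouse with muscle transcripts, was high for Pfkfb4 (50.0 CPM, the others 23.6 to 32.7). Chow WT mouse 4 was high for Aldoc (3.14 CPM, the others 0 to 0.660), a gene near the detection floor. On HFD in inguinal WAT, WT mouse 5 was high for Gpi1 (383 CPM, the others 305 to 339) and still below all KI mice. WT mouse 8 was low for Aldoa (959 CPM, the others 1378 to 1697), and KI mouse 2 was low for Eno1 (456 CPM, the others 581 to 672).

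The genotype effect differed between diets by the edgeR interaction test for Pkm (-1.35), Pfkl (-1.28), Eno1 (-1.18) and Gapdh (-1.15), each the HFD effect minus the chow effect on the log2 scale. It differed between depots for H6pd (-1.09) and Aldoc (2.92), each the BAT effect minus the effect in inguinal WAT. Aldoc rests on low counts and passed the filter through the group where it was highest.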

How the results depend on the processing

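No member called in a comparison changed direction under any alternative run. Of the 33 members, the number called went as follows. On HFD in inguinal WAT it was 5, with 9 at an adjusted p below 0.05, 3 in 1 fit of all 6 groups (Pfkfb4, H6pd and Rpe) and 5 to 6 with each mouse left out. On chow it was 6, with 12 by DESeq2, 12 at an adjusted p below 0.05, 15 in 1 fit of all 6 groups and 4 to 7 with each mouse left out. The 15 include Pfkm, Pgam2 and Eno3, which are high in KI mouse 4. In BAT it was 0, with 3 by DESeq2, 1 without a filter on low counts (Aldoc), 2 at an adjusted p below 0.05, 1 in 1 fit of all 6 groups (Pgls), 1 with the muscle marker level as a covariate (H6pd) and 0 to 1 with each mouse left out (Aldoc without KI mouse 4). For the diet difference it was 4, with 10 by DESeq2, 12 at an adjusted p below 0.05 and 2 to 9 with each mouse left out. It was 2, Pfkl and Pkm, without chow WT mouse 1, 3, 5 or 7, HFD WT mouse 1 or HFD KI mouse 7. For the depot difference it was 2, with 1 when every mouse had to hold 10 counts and 2 to 3 with each mouse left out. For most of these settings the share of all genes called is not given, so a higher count is not a result about the members. The cause of these shifts was not tested.

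Mice of both genotypes share numbers, but no set of same-numbered mice correlated above 0.1 in every pair, so the numbers were not taken as pairs. This does not settle whether they are independent. Same-numbered WT and KI mice had a median correlation of -0.16 on HFD (highest 0.654), -0.05 on chow and 0.10 in BAT. For mice of other numbers the medians were 0.04, 0.03 and -0.04. With the mouse number as a replicate block the count was 5 on HFD, 0 on chow, 1 in BAT (H6pd) and 1 for the depot difference (H6pd). On chow all 6 log2 fold changes stayed positive under the block, with adjusted p from 0.0109 to 0.0559.

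Depth limits Aldoc, which had at most 37 counts in a mouse. Whole-tissue RNA, 1 founder line and male mice only limit what the groups stand for, and no batch is given in the labels used here.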
